A study of Mus musculus with 6 samples.

Results

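The 10 genes described here are mouse targets of the transcription factor NRF2 that supply and use glutathione or run the thioredoxin system: Slc7a11, Gclc, Gclm, Gsr, Gstp1, Txnrd1, Prdx1, Srxn1, Nqo1 and Sqstm1. They were taken by gene name from a count table of 54532 genes, and each name matched 1 row. RNA was sequenced from RAW264.7 cells, a mouse macrophage line, after 3 days of growth on 1 of 3 zinc-based materials. These were labelled CaP Zn, CaP Zn0.8Mn, in which manganese joins the zinc, and CaP Zn0.8Mn0.1Li, in which lithium joins both, with 2 libraries for each. CaP is the usual short form of calcium phosphate. Zinc and CaP were shared by every group, so CaP Zn was the reference, and cells grown without an alloy were not analysed here. No label states that the 2 libraries of an alloy came from separate cultures, so p-values reflect the variation from library to library alone, and part of it may be technical.

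Library totals lay between 14944070 and 17709290 counts. All 10 macrophage markers checked were expressed. Of 6 lymphocyte markers, 4 had 0 counts in all 6 libraries, Cd3g, Ms4a1 and Ncr1 among them. The summed level of the macrophage markers was 11418 and 14688 CPM (counts scaled to library size) on CaP Zn and 10902 to 17200 CPM in the other 4 libraries. That of the osteoclast markers was 126 to 283 CPM and of the dendritic cell markers 3.01 to 21.7 CPM. For the fibroblast and osteoblast markers it was 7.53 to 17.4 CPM. The neutrophil markers summed to 0.264 to 2.17 CPM and the lymphocyte markers to 0 to 0.132 CPM. CaP Zn0.8Mn replicate 1 stood apart: 7.88% of its counts were mitochondrial against 1.82% to 2.15% elsewhere. Its log2 CPM correlated at r = 0.901 to 0.920 with the other libraries across genes, where the other pairs reached 0.988 to 0.991. Fold changes and counts of genes that rest on it are therefore given with and without it.

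NRF2, encoded by Nfe2l2, is held at a low level by KEAP1, which hands it to a ubiquitin ligase. Electrophiles, oxidants and some metals modify cysteines of KEAP1, and the NRF2 that then accumulates binds antioxidant response elements together with a small MAF protein. In macrophages its targets maintain glutathione and thioredoxin, the thiol couples that remove peroxides and repair oxidised proteins.

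The antioxidant response element has the core TGACNNNGC, and the related AP-1 site is TGANTCA. Both were searched on both strands in the 250 bases before the start of transcription, in RefSeq promoter sequences of build GRCm38.p6. An extended AP-1 site, TGANTCAGC, was added after the first matches had been seen. It holds the AP-1 site, but it matches the core only where its N is C. RefSeq sequences were matched for 8 of the 10 genes, with 3 starts for Txnrd1 and 1 for each other gene. Gclc and Gsr had no entry. The windows below are shown because they hold a match, given in capitals with 10 bases on each side, on the strand of the gene:
Gclm: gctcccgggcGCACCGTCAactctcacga
Txnrd1: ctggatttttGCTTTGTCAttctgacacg
Prdx1: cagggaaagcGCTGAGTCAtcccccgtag
Srxn1: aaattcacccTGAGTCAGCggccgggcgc
Gstp1: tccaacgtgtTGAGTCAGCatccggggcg

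The Gclm window lies at chr3:122245413-122245441, and its capitals are the core on the opposite strand, 134 to 126 bases before the start. The Txnrd1 window lies at chr10:82859104-82859132 and holds the core on the opposite strand, 92 to 84 bases before a start that is 25255 bases inside the gene as the count table draws it. In Prdx1, at chr4:116685456-116685484, the same 9 bases match the core and the extended AP-1 site, 133 to 125 bases before the start. The Srxn1 window at chr2:152105469-152105497 holds the extended AP-1 site 45 to 37 bases before the start. In Gstp1, which lies on the minus strand, the extended AP-1 site is at chr19:4037968-4037996, 74 to 66 bases before the RefSeq start. It lies within an untranslated exon of a longer GENCODE model. The other 4 windows overlap no annotated exon. Prdx1 and Srxn1 each held a second AP-1 site further from the start. Srxn1 and Gstp1 held no match to the core in the 250 bases searched.

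A match to the core was thus found in 3 of 8 genes and a match to the AP-1 site in 3 of 8. Counted in the same way, per gene over all starts, 11.5% of 27025 genes in RefSeq held the core. The AP-1 site was held by 7.82% and the extended AP-1 site by 1.17%. Per window these shares were 10.2%, 6.75% and 1.02% of 32851. No match lay in the windows of Slc7a11, Nqo1 and Sqstm1, which says only that these letters are absent there. In the values that follow, CaP Zn0.8Mn replicate 1 was below the other libraries for Gclm, Txnrd1, Prdx1 and Gstp1 and above them for Srxn1, which all hold a match. Of the genes without one, Sqstm1 was below and Slc7a11 above, and Nqo1 was barely present in any library.

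Levels can be compared between genes only per length, and the deposited FPKM (fragments scaled to gene length and library size) served for this. Over the 5 libraries other than CaP Zn0.8Mn replicate 1, Prdx1 was at 245 to 317 FPKM and Sqstm1 at 213 to 247 FPKM. Txnrd1 followed at 45.4 to 47.4 FPKM and Gstp1 at 27.0 to 48.0 FPKM, and these ranges overlap. Gsr at 21.3 to 27.3 FPKM also overlapped Gstp1. Below them stood Gclc at 15.8 to 19.9 FPKM, and then Gclm at 9.0 to 10.5 FPKM beside Srxn1 at 7.52 to 10.3 FPKM, whose ranges overlap. Slc7a11 was at 2.21 to 2.89 FPKM, and Nqo1 at 0 to 0.124 FPKM. Prdx1 and Sqstm1 were thus the most abundant of the set per length, and the cystine transporter the least abundant of the 9 clearly detected genes.

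**Figure D1:**
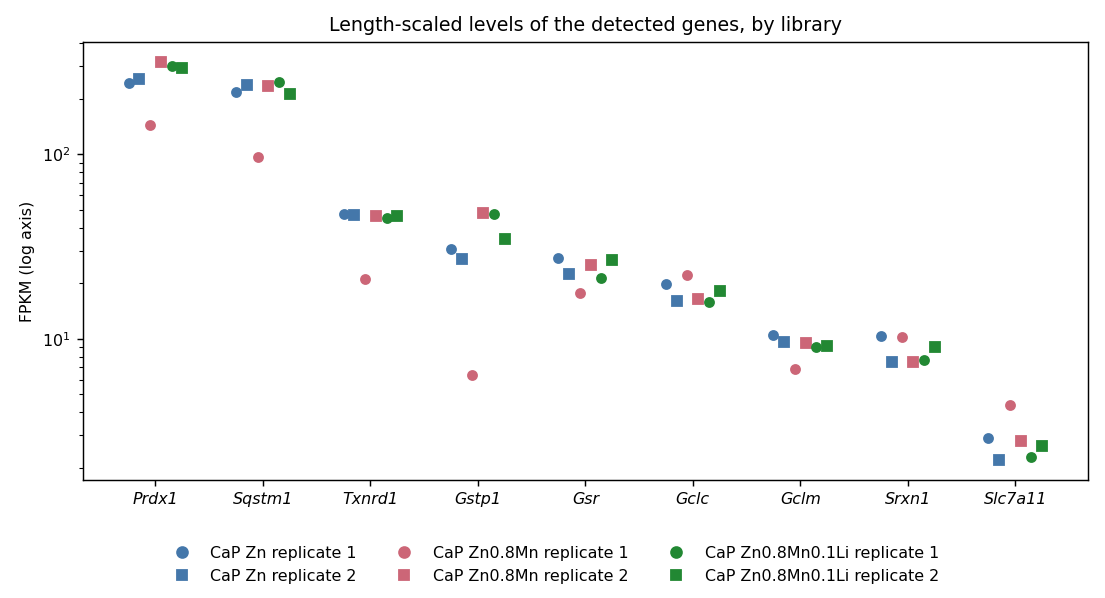
FPKM on a log axis of the 9 detected genes in each of the 6 libraries, ordered by mean; colours mark the alloy and shapes the replicate number. Prdx1 and Sqstm1 lie above 200 FPKM in 5 libraries, and CaP Zn0.8Mn replicate 1 is below them at 145 and 96.9 FPKM.

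In the order of roles, glutathione supply comes first. Slc7a11 (GRCm38 chr3:49892526-50443614, minus strand) is the transporter subunit that imports the cystine from which glutathione is made. It was at 40.8 and 31.0 CPM on CaP Zn, 62.4 and 39.2 CPM on CaP Zn0.8Mn, and 32.2 and 37.1 CPM on CaP Zn0.8Mn0.1Li, with replicate 1 given first here and below. The single high value is CaP Zn0.8Mn replicate 1, 1.73 times the mean of the other 5 libraries. The log2 fold change of CaP Zn0.8Mn against CaP Zn was 0.50 with all 6 libraries (SE 0.29, adjusted p = 0.773 in edgeR) and 0.12 without that library (SE 0.16, adjusted p = 0.967 in edgeR). CaP Zn0.8Mn0.1Li lay below CaP Zn0.8Mn in both libraries, by a log2 of -0.55 (SE 0.29, adjusted p = 0.680 in edgeR) that became -0.18 (SE 0.16) without it. Against CaP Zn the same alloy differed by -0.05 (SE 0.29), less than the spread within either group.

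Gclc (chr9:77754535-77794485) and Gclm (chr3:122245557-122270732) encode the catalytic and the modifier subunit of glutamate-cysteine ligase, the rate-limiting enzyme of glutathione synthesis. Gclc was at 75.8 and 60.8 CPM on CaP Zn, 85.7 and 62.3 CPM on CaP Zn0.8Mn, and 59.8 and 68.9 CPM on CaP Zn0.8Mn0.1Li. Gclm was at 66.6 and 60.9 CPM on CaP Zn, 44.3 and 59.9 CPM on CaP Zn0.8Mn, and 56.9 and 57.8 CPM on CaP Zn0.8Mn0.1Li. In CaP Zn0.8Mn replicate 1 the catalytic subunit had its highest value of the 6 libraries and the modifier subunit its lowest. Gclc on CaP Zn0.8Mn differed from CaP Zn by a log2 of 0.12 (SE 0.24), which was -0.13 (SE 0.14) without that library, and the alloy with lithium differed by -0.08 (SE 0.24). The ratio of Gclc to Gclm in CPM was 0.998 to 1.19 in 5 libraries and 1.93 in that one, and in FPKM it was 1.67 to 1.99 against 3.23. All 4 libraries of the alloys with manganese had less Gclm than either CaP Zn library. The log2 differences from CaP Zn were -0.29 (SE 0.21) for CaP Zn0.8Mn and -0.15 (SE 0.21) with lithium, and without CaP Zn0.8Mn replicate 1 they were -0.09 (SE 0.11) and -0.15 (SE 0.09). None of these passed the test, with adjusted p between 0.773 and 1.00 in edgeR. Of the 50-base stretches of Gclm, 3.92% also occur in other genes, among them Ppia and its pseudogenes, so some reads could have been split.

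Gsr, glutathione reductase (chr8:33652523-33698163), returns oxidised glutathione to its reduced form. Its values were 76.0 and 62.6 CPM on CaP Zn, 50.1 and 69.6 CPM on CaP Zn0.8Mn, and 59.1 and 74.8 CPM on CaP Zn0.8Mn0.1Li. The groups overlap in each comparison, and the largest log2 difference from CaP Zn was -0.21 (SE 0.25), which was 0.00 (SE 0.15) without CaP Zn0.8Mn replicate 1.

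Gstp1 (chr19:4035407-4037921, minus strand), a pi-class glutathione S-transferase that couples glutathione to electrophiles, differed most between libraries. It was at 23.4 and 20.5 CPM on CaP Zn, 4.96 and 36.5 CPM on CaP Zn0.8Mn, and 36.2 and 26.7 CPM on CaP Zn0.8Mn0.1Li. Both CaP Zn0.8Mn0.1Li libraries and CaP Zn0.8Mn replicate 2 were above both CaP Zn libraries, while CaP Zn0.8Mn replicate 1 was 5.78 times below the mean of the other 5. With 6 libraries, the log2 fold change against CaP Zn was -0.08 on CaP Zn0.8Mn (SE 0.83, adjusted p = 0.971 in edgeR) and 0.52 on CaP Zn0.8Mn0.1Li (SE 0.83, adjusted p = 1.00 in edgeR). Without CaP Zn0.8Mn replicate 1 the first became 0.73 (SE 0.17), with unadjusted p = 0.000698 and adjusted p = 0.817 in edgeR. The second was 0.51 (SE 0.14) without it, with unadjusted p = 0.00276 and adjusted p = 0.596 in edgeR. Without that library, 8 of 10 macrophage markers were also above 0 on CaP Zn0.8Mn (median 0.24), beside 48.2% of all genes. With lithium 7 of 10 were (median 0.15), beside 50%. In CaP Zn0.8Mn replicate 1 itself, 6 markers were above the mean of the other 5 libraries and 4 below. Their median log2 deviation there was 0.72, where that of Gstp1 was -2.53. The part of these markers in the Gstp1 difference was not tested.

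When CaP Zn replicate 1 was left out as well, 4 libraries and 1 residual degree of freedom remained, with a single CaP Zn library. The library left out held the higher Gstp1 value on CaP Zn, 23.4 against 20.5 CPM, so its removal was bound to raise the fold change. The log2 fold change of Gstp1 rose from 0.73 to 0.83 on CaP Zn0.8Mn (SE 0.16). On CaP Zn0.8Mn0.1Li it rose from 0.51 to 0.61 (SE 0.14). In that fit 43 of 13156 genes were called on CaP Zn0.8Mn (0.327%) and 47 with lithium (0.357%), and Gstp1 was the only one of the 9 tested genes among them. Between the alloys with manganese it called 40 genes (0.304%) and 0 of the 9. The fit was added after the values had been seen, and each lone library is assumed to vary like the CaP Zn0.8Mn0.1Li pair. The matching fit without CaP Zn replicate 2 was not run.

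The Gstp1 counts have a further limit, since 33.7% of its 50-base stretches also occur in Gstp2 or the pseudogene Gstp-ps. Gstp2, a near-identical copy, was listed at 0 counts in all 6 libraries. Gstp-ps had 13 to 63 counts. Gstp3, a related gene that shares no such stretch, had 44, 19, 0, 52, 23 and 60 counts in the order given above. With Gstp2, Gstp3 and Gstp-ps added, Gstp1 had 521, 378, 88, 657, 668 and 559 counts. On CaP Zn0.8Mn0.1Li this sum differed from CaP Zn by a log2 of 0.51.

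**Figure D2:**
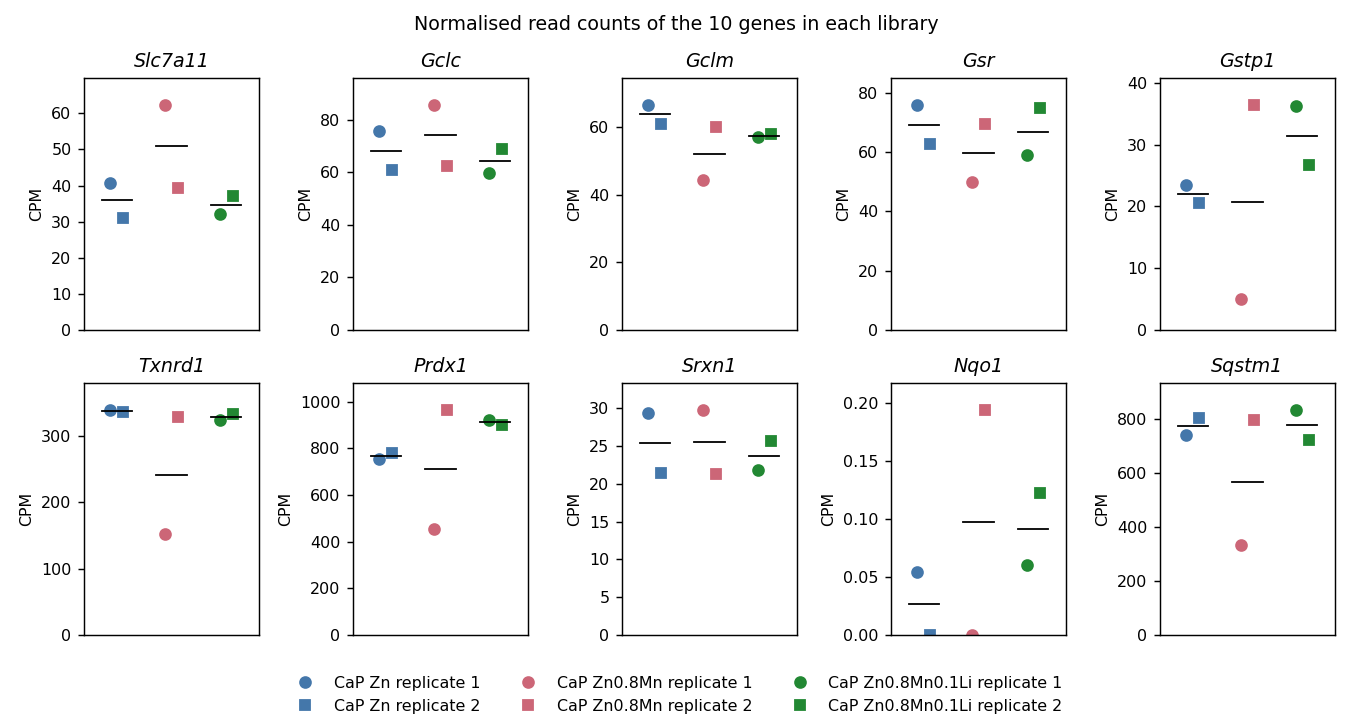
CPM of each of the 10 genes in the 6 libraries, by alloy; points are libraries and bars are the means of 2, and each vertical axis starts at 0. Gstp1, Txnrd1, Prdx1 and Sqstm1 show CaP Zn0.8Mn replicate 1 far below its partner, and Slc7a11 shows it above, at 62.4 against 39.2 CPM.

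In the thioredoxin system, Txnrd1 (chr10:82833951-82897712) encodes the cytosolic reductase that recharges thioredoxin with electrons from NADPH. It was at 339 and 336 CPM on CaP Zn, 153 and 329 CPM on CaP Zn0.8Mn, and 324 and 332 CPM on CaP Zn0.8Mn0.1Li. Apart from the 153 CPM of CaP Zn0.8Mn replicate 1, the values were nearly level. Over the other 5 libraries the coefficient of variation was 1.82%, and 0.941% of the 9669 genes with at least 5 CPM varied less. Both alloys with manganese lay below CaP Zn in every library, and none of these differences passed the test. On CaP Zn0.8Mn the log2 difference was -0.49 with all 6 libraries (SE 0.37, adjusted p = 0.773 in edgeR) and -0.04 without replicate 1 (SE 0.10, adjusted p = 0.985 in edgeR). On CaP Zn0.8Mn0.1Li it was -0.04 in both fits (SE 0.37 and 0.08).

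Prdx1 (chr4:116685544-116700822), a peroxiredoxin that reduces hydrogen peroxide with electrons from thioredoxin, was at 754 and 782 CPM on CaP Zn. It was at 453 and 966 CPM on CaP Zn0.8Mn and at 921 and 902 CPM on CaP Zn0.8Mn0.1Li. As for Gstp1, 3 of the 4 libraries with manganese were above both CaP Zn libraries and CaP Zn0.8Mn replicate 1 was the lowest of all. Without that library, the log2 difference from CaP Zn was 0.33 on CaP Zn0.8Mn (SE 0.13, unadjusted p = 0.0213, adjusted p = 0.967 in edgeR). For CaP Zn0.8Mn0.1Li it was 0.25 (SE 0.11, unadjusted p = 0.0349, adjusted p = 0.967 in edgeR). With all 6 libraries these were -0.11 (SE 0.38) and 0.25 (SE 0.38). Of its 50-base stretches, 8.29% also occur in other genes, 5.44% in the pseudogene Gm21399 and 4.6% in the pseudogene Gm7204. Gm21399 had 56 to 100 counts and Gm7204 had 0, against 6856 or more for Prdx1.

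Srxn1 (chr2:152105516-152111376) encodes sulfiredoxin, which restores peroxiredoxins that have been overoxidised. It was at 29.4 and 21.4 CPM on CaP Zn, 29.8 and 21.3 CPM on CaP Zn0.8Mn, and 21.8 and 25.6 CPM on CaP Zn0.8Mn0.1Li. The 2 highest libraries belong to different alloys, and so do the 2 lowest. Its log2 difference from CaP Zn was 0.01 on CaP Zn0.8Mn (SE 0.27) and -0.10 on the alloy with lithium (SE 0.27). The first is so near 0 that other scalings reversed its sign, and it was -0.26 (SE 0.19) without CaP Zn0.8Mn replicate 1.

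Nqo1 (chr8:107388225-107403206, minus strand), a quinone reductase and a common reporter of NRF2 activity, was barely present. It had 1, 0, 0, 3, 1 and 2 counts in the 6 libraries in the same order. A count of 0 allows up to 3 counts, or 0.169 to 0.201 CPM, and every library was at or under that floor. No fold change is given, and any change in Nqo1 was not detectable at this depth.

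Sqstm1 (chr11:50199366-50210827, minus strand) encodes p62, an autophagy adaptor that binds KEAP1 and is itself a target of NRF2. It was at 742 and 801 CPM on CaP Zn, 334 and 795 CPM on CaP Zn0.8Mn, and 834 and 723 CPM on CaP Zn0.8Mn0.1Li. Apart from the 334 CPM of CaP Zn0.8Mn replicate 1, the alloys overlap. On CaP Zn0.8Mn0.1Li it differed from CaP Zn by a log2 of 0.01 (SE 0.42, or 0.11 without that library). CaP Zn0.8Mn differed by -0.45 (SE 0.42) with it and by 0.04 (SE 0.14) without it.

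CaP Zn0.8Mn replicate 1 lay outside the range of the other 5 libraries for all 9 tested genes. Slc7a11, Gclc and Srxn1 were above that range and Gclm, Gsr, Gstp1, Txnrd1, Prdx1 and Sqstm1 below it. Of all 13156 genes tested, 42% were above and 41.9% below, so lying outside was the rule in this library. At least 2-fold below the mean of the others were 3 of the 9, namely Gstp1, Sqstm1 and Txnrd1, against 18.2% of all genes. None of the 9 was at least 2-fold above, against 15.4% of all genes. The 9 genes thus did not move one way: the transporter, the catalytic ligase subunit and sulfiredoxin were high where the reductases, the transferase, the peroxiredoxin and the adaptor were low.

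In the same library the deviation of a gene went with its length in the count table. Over 9669 genes of at least 5 CPM the Spearman correlation was 0.476 across genes of this library, and in 3 classes of about equal size the median log2 deviation was -0.58 for the shortest genes, -0.01 for those between and 0.37 for the longest. Among the 9, Gstp1 is the shortest with 757 bases and low, and Slc7a11 the longest with 13922 and high. Gsr and Prdx1, with 2754 and 3043 bases, are in the shortest class and low. Other genes went against this order. Txnrd1 and Gclm, with 7086 and 6291 bases, are in the longest class and low. Srxn1, with 2820, is in the shortest class and high. Gclc and Sqstm1, with 3766 and 3356, are in the class between. This library thus differs in its mitochondrial share, and its deviations across all genes go with gene length. The part of either in these differences was not tested. In bulk RNA, fewer cells of a type and less RNA per cell cannot be told apart.

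**Figure D3:**
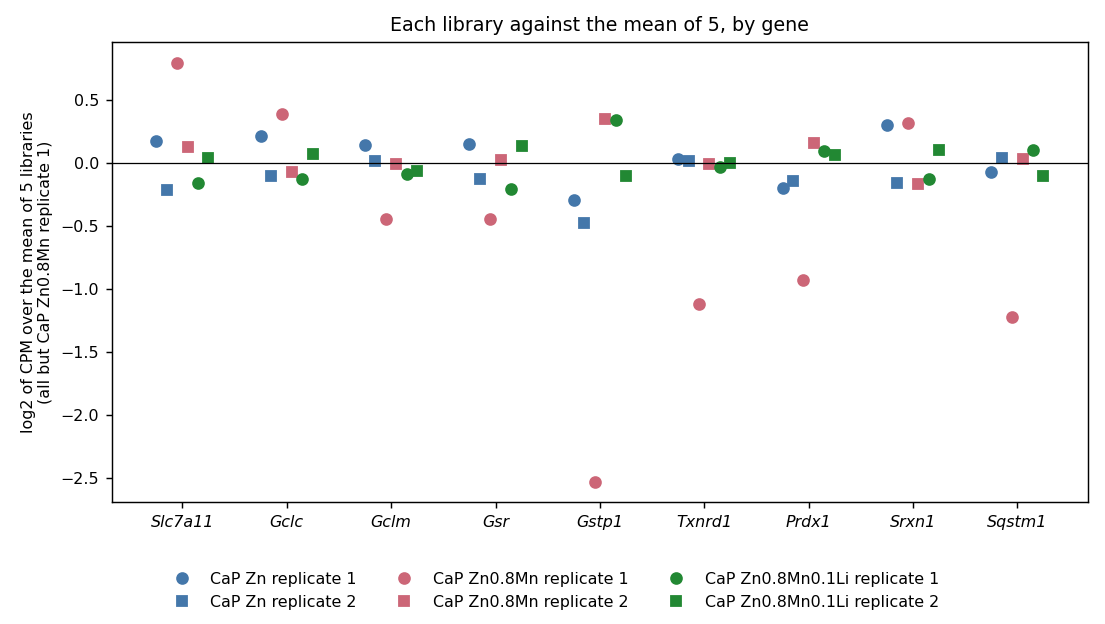
Log2 of each library's CPM over the mean of the 5 libraries other than CaP Zn0.8Mn replicate 1, for the 9 tested genes. CaP Zn0.8Mn replicate 1 lies outside the other points for every gene, from 0.79 for Slc7a11 to -2.53 for Gstp1.

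The design compares CaP Zn0.8Mn with CaP Zn, which differ in manganese. With 6 libraries, 0 of the 9 genes were called and 0 of 13156 genes (0%) in edgeR, where 207 genes (1.57%) had an unadjusted p under 0.05. DESeq2 called 1 gene and limma-voom 0, and neither called any of the 9. The log2 fold change was above 0 for Slc7a11, Gclc and Srxn1 and below 0 for the other 6, with a median of -0.11 beside 0.00 over all genes. Libraries did not overlap for 2 of the 9, Gclm and Txnrd1, both lower, against 12.8% of all genes, and for 0 higher, against 12.5%.

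Without CaP Zn0.8Mn replicate 1, 2 of 13156 genes (0.0152%) and 0 of the 9 were called in this comparison in edgeR, and 569 genes (4.33%) had an unadjusted p under 0.05. The lone library is assumed to vary like those of the other groups. The signs of Gclc, Gsr, Gstp1, Prdx1, Srxn1 and Sqstm1 then turned, and the median of the 9 was 0.00. Gstp1 and Prdx1 were higher without overlap, where 32% of all genes were, and Gclm, Txnrd1 and Srxn1 lower, where 32.8% were. When CaP Zn0.8Mn replicate 2 was left out in its place, 7808 genes (59.3%) and 7 of the 9 were called, all but Gclc and Srxn1. That result therefore rests on replicate 1 alone.

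The step from CaP Zn to CaP Zn0.8Mn0.1Li adds manganese and lithium together, and the comparison shares its CaP Zn libraries with the one above. With 6 libraries edgeR called 0 of the 9 genes and 0 of all genes (0%), with 29 (0.22%) at an unadjusted p under 0.05, and DESeq2 and limma-voom called 0. Gstp1 and Prdx1 were higher without overlap, beside 16.7% of all genes, and Gclm and Txnrd1 lower, beside 16.8%. The 9 fold changes ran from -0.15 for Gclm to 0.52 for Gstp1, with a median of -0.05 beside 0.00 over all genes. Leaving out CaP Zn0.8Mn replicate 1 moved none of the 9 by more than 0.01 in log2, since that library is in neither group, but it lowered the SE of Gstp1 from 0.83 to 0.14. Still 0 genes were called (0%), while 660 (5.02%) had an unadjusted p under 0.05, Gstp1 and Prdx1 among them.

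CaP Zn0.8Mn0.1Li and CaP Zn0.8Mn differ in lithium. With 6 libraries 0 of the 9 genes and 0 of all genes (0%) were called in edgeR, with 316 (2.4%) at an unadjusted p under 0.05, while DESeq2 called 1 gene and limma-voom 0. Only Slc7a11 had libraries that did not overlap among the 9, with both CaP Zn0.8Mn0.1Li libraries lower, beside 17.5% of all genes. For 0 of the 9 were both higher, beside 17.1%. Log2 differences ran from -0.55 for Slc7a11 to 0.60 for Gstp1 (SE 0.83), and without CaP Zn0.8Mn replicate 1 from -0.21 for Gstp1 (SE 0.17) to 0.16 for Srxn1 (SE 0.19). Without that library 2 genes (0.0152%) and 0 of the 9 were called, 416 genes (3.16%) and 0 of the 9 had an unadjusted p under 0.05, and 2 of the 9 fold changes were above 0 beside 49.6% of all. Srxn1 was then higher without overlap, where 33.5% of all genes were, and Slc7a11, Gclm, Gstp1 and Prdx1 lower, where 34.4% were. With replicate 2 of that alloy left out in its place, 8096 genes (61.5%) and 8 of the 9 were called, all but Srxn1. An F test over the 3 alloys called 0 genes (0%) with 6 libraries and 1 (0.0076%) without CaP Zn0.8Mn replicate 1, and none of the 9.

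**Figure D4:**
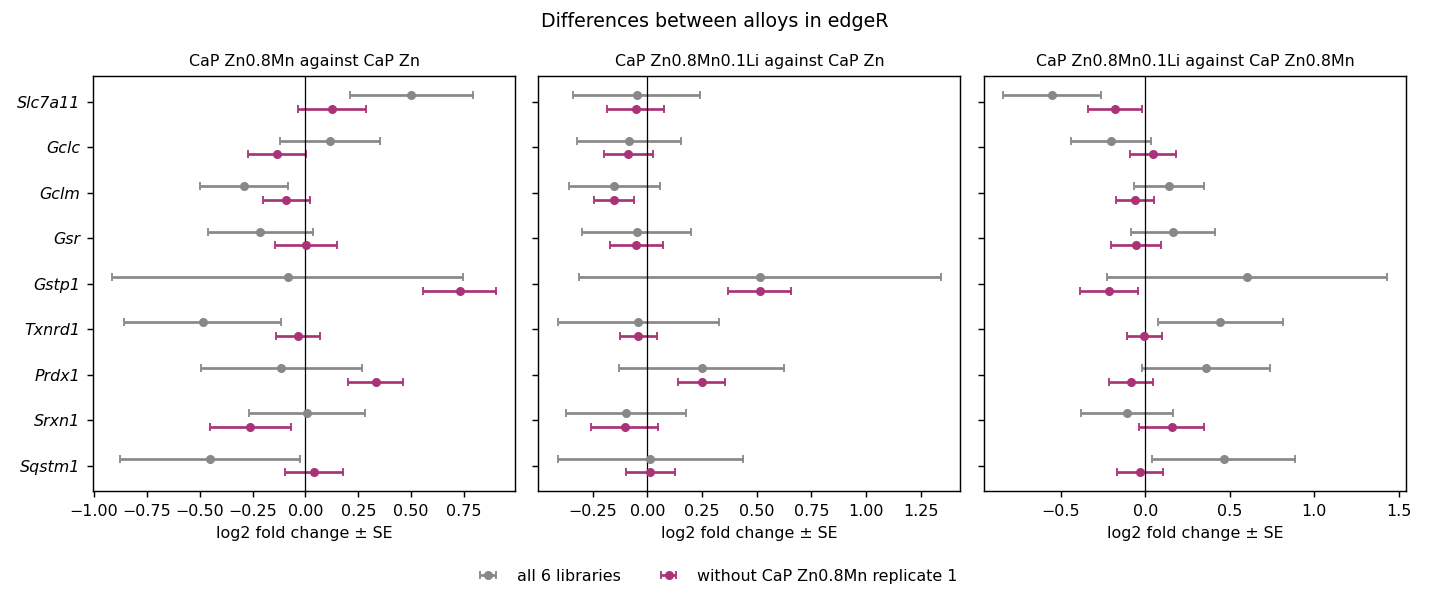
Log2 fold change with its SE from edgeR for the 9 tested genes in the 3 comparisons, in grey with all 6 libraries and in purple without CaP Zn0.8Mn replicate 1; the horizontal scale differs between panels. In the middle panel the points stay in place and the bars shorten, for Gstp1 from 0.83 to 0.14, while in the outer panels several points cross 0.

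Differences between replicates of 1 alloy were as large as those between alloys for several of the 9. CaP Zn replicate 1 was the highest of the 5 libraries other than CaP Zn0.8Mn replicate 1 for Slc7a11, Gclc, Gclm, Gsr, Txnrd1 and Srxn1, which is 6 of 9 beside 25.5% of all genes. In log2, replicate 1 of CaP Zn exceeded replicate 2 by 0.46 for Srxn1, 0.39 for Slc7a11, 0.32 for Gclc and 0.28 for Gsr. On CaP Zn0.8Mn0.1Li the same 4 genes were higher in replicate 2, where the log2 of replicate 1 over replicate 2 was -0.23, -0.20, -0.20 and -0.34 in the same order. These 4, named after their values were seen, thus shared their signs on these alloys. So did Gclm (0.13 and -0.02) and Txnrd1 (0.02 and -0.04), with smaller differences. On CaP Zn, 7 of the 9 were higher in replicate 1, beside 49.9% of all genes. On CaP Zn0.8Mn0.1Li 3 of the 9 were, beside 6489 of 13156 genes. On CaP Zn0.8Mn the 4 did not share a sign. Srxn1, Slc7a11 and Gclc were 0.49, 0.67 and 0.46 higher in replicate 1, and Gsr was at -0.47. On CaP Zn0.8Mn0.1Li, Gstp1, Sqstm1 and Prdx1 went the other way, 0.44, 0.21 and 0.03 higher in replicate 1. Over these 5 libraries the coefficient of variation ran from 1.82% for Txnrd1 to 25.6% for Gstp1, with a median of 7.23% over the 9669 genes of at least 5 CPM, and 99.0% of those genes varied less than Gstp1.

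Of the 13 tested genes of NRF2 and its regulators, 6 lay above the range of the other 5 libraries in CaP Zn0.8Mn replicate 1 and 7 below it. Over all genes these shares were 42% and 41.9%. Nfe2l2, which encodes NRF2, was at 80.0 and 99.5 CPM on CaP Zn, 155 and 97.5 CPM on CaP Zn0.8Mn, and 98.0 and 88.5 CPM on CaP Zn0.8Mn0.1Li. Keap1, its inhibitor, was at 41.9 and 40.7 CPM, 72.4 and 39.9 CPM, and 34.2 and 41.0 CPM in the same order. Bach1, a repressor that competes for the same elements, was at 52.4 and 58.8 CPM, 102 and 49.9 CPM, and 57.1 and 51.4 CPM. All 3 were highest in CaP Zn0.8Mn replicate 1, and over the other 5 libraries the alloys overlapped for Nfe2l2. On CaP Zn0.8Mn relative to CaP Zn, 5 of the 13 were above 0 with 6 libraries (median -0.32), beside 50.5% of all genes. Without that library 6 were (median -0.02), beside 48.2%. None of the 13 was called in either direction in any comparison, with or without it. From CaP Zn to CaP Zn0.8Mn0.1Li, the genes named by size were Maff, a small MAF protein, at -0.18 (SE 0.15), Btrc at -0.15 (SE 0.13) and Cul3, the scaffold of the ligase that takes NRF2 from KEAP1, at 0.13 (SE 0.08), as log2 without CaP Zn0.8Mn replicate 1.

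Other genes of the pathway were read from lists written with earlier results of these data in view, and 0 genes of any list were called in edgeR in either direction, also when CaP Zn0.8Mn replicate 1 was left out. For CaP Zn0.8Mn against CaP Zn without that library, the log2 fold change was above 0 for 18 of 23 other NRF2 targets (median 0.08), 19 of 23 other glutathione genes (median 0.09) and 14 of 17 other thioredoxin genes (median 0.15). It was above 0 for 48.2% of all 13156 genes, with a median of -0.01. With 6 libraries the numbers above 0 were 8 of 23, 8 of 23 and 4 of 17, with medians of -0.21, -0.14 and -0.22, beside 50.5% of all genes. The direction of these lists thus turned with 1 library, and neither value carries a test.

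On CaP Zn0.8Mn0.1Li, 16 of 23 other NRF2 targets (median 0.04), 17 of 23 other glutathione genes (median 0.03) and 9 of 17 other thioredoxin genes (median 0.01) were above 0 relative to CaP Zn when that library was left out. The share was 50% over all genes. Among the targets, the ferritin subunits Fth1 and Ftl1, which store iron, were at 0.40 (SE 0.20) and 0.37 (SE 0.18), and the reductase Ptgr1 at 0.28 (SE 0.14). Of the glutathione genes, the glutaredoxin gene Glrx was at 0.21 (SE 0.09), Esd at 0.15 (SE 0.10) and Chac1, which degrades glutathione, at 0.16 (SE 0.23). For the thioredoxin genes, Txnip, an inhibitor of thioredoxin, was at 0.40 (SE 0.19), Prdx5 at 0.32 (SE 0.09) and Txndc17 at 0.28 (SE 0.09). These genes were named because their libraries did not overlap and their differences were the largest of their list. Their adjusted p in edgeR ran from 0.629 for Prdx5 to 0.987 for Chac1.

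Slc7a11 and Sqstm1 also belong to other programmes, amino acid stress through ATF4 and autophagy. Of 16 tested ATF4 targets, 14 were above 0 on CaP Zn0.8Mn (median 0.10) and 9 with lithium (median 0.04), relative to CaP Zn and without CaP Zn0.8Mn replicate 1. With 6 libraries the first count was 3 of 16 (median -0.16). Ddit3, which encodes the stress factor CHOP, was at 0.47 for CaP Zn0.8Mn0.1Li (SE 0.10, adjusted p = 0.423 in edgeR), Cebpb at 0.24 (SE 0.13) and Aldh1l2 at -0.23 (SE 0.09). The symbol Ddit3 has 2 protein-coding rows in the table, and the row with more counts was used, since the other had 0 counts in all 6 libraries. Of 11 autophagy adaptors and LC3 relatives, 6 were above 0 on CaP Zn0.8Mn without that library (median 0.02) and 2 with 6 libraries (median -0.27). With lithium 7 of 11 were above 0 in either case (median 0.04), with Ulk1 at -0.17 (SE 0.10) and Gabarapl2 at 0.12 (SE 0.10).

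**Figure D5:**
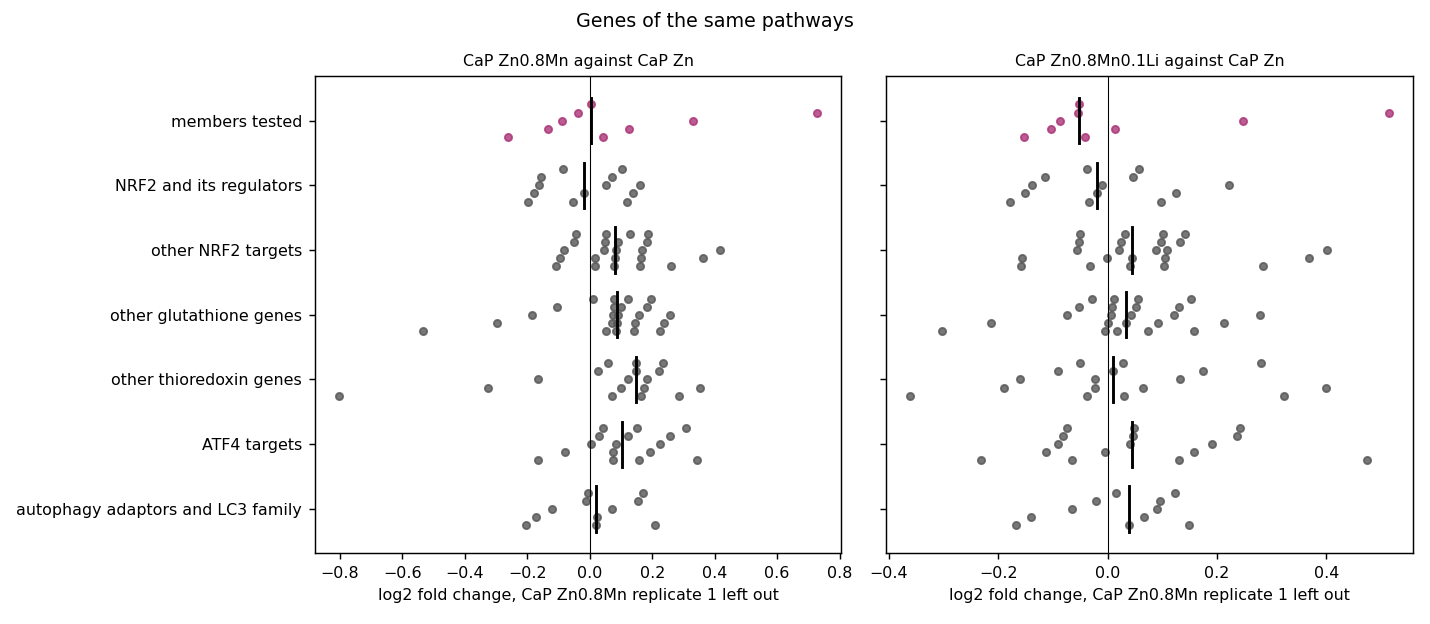
Log2 fold change against CaP Zn without CaP Zn0.8Mn replicate 1, 1 point per tested gene and a bar at the median, for the 9 tested genes and 6 related lists. The lists centre near 0, with medians from -0.02 to 0.15 on the left and from -0.05 to 0.04 on the right, and Gstp1 is the rightmost point of the 9 at 0.73 and 0.51.

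Likeness between genes was taken as the root mean square difference of log2 CPM, centred per gene, over the 6 libraries among genes of at least 5 CPM. The nearest gene outside the set was Pign for Slc7a11, Parg for Gclc, Ifrd2 for Gclm and Nmral1 for Gsr. It was AC154187.2 for Gstp1, Zfp511 for Txnrd1, Tmem208 for Prdx1, Zfp868 for Srxn1 and Glrx2, a mitochondrial glutaredoxin, for Sqstm1. Within the set the closest pair was Gclc and Srxn1, at 0.06 in log2: Gclc ranked 4 of 9668 genes from Srxn1, and Srxn1 ranked 39 from Gclc. Txnrd1 and Sqstm1 came next at 0.09, each within the first 267 of the other. The farthest pair was Slc7a11 and Gstp1, at 1.26. With 6 libraries and 1 of them far from the rest, this measure follows mainly CaP Zn0.8Mn replicate 1. Over the other 5 libraries each of the 9 had another nearest gene outside the set: Ticam1, Phlpp2, Ppfibp1, Snapc3, Abcg2, Serinc1, Rab5c, Hmgn5 and Naca, in the order above. The closest pair within the set was then Gclm and Txnrd1, at 0.060. Many genes outside the set were nearer, since Txnrd1 ranked 718 from Gclm and Gclm 1720 from Txnrd1. Gclc and Srxn1 were at 0.064, with Gclc at rank 55 from Srxn1 and Srxn1 at rank 287 from Gclc. The farthest pair was Srxn1 and Gstp1, at 0.44, and Gstp1 had Prdx1 as its nearest member, at rank 87.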

How the data were processed

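Polyadenylated RNA of 6 libraries was measured. The authors deposited whole-number read counts per gene, with no normalization, and FPKM, which scale those counts to gene length and to library sizes of 0.976 to 1.06 times the count totals. For the aligner and counter: not given in the sources used here. A build, mm9, is named in the submitters' processing notes, but 98.3% of 54409 matched identifiers have GRCm38 positions (GENCODE M21), so coordinates are given as GRCm38. Per the labels, groups come from the treatment and replicate numbers from the titles.

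Counts were tested with edgeR 4.0.16 in R 4.3.3 (TMM, filterByExpr, robust quasi-likelihood, two-sided, group means over all 6 libraries, 3 residual degrees of freedom), with Benjamini-Hochberg adjustment over all 13156 genes kept and adjusted p under 0.05 as the threshold. CPM carry TMM factors of 0.973 to 1.05. The 2 replicates of each alloy differed beyond sampling noise (chi-square of 6.16 to 278 per gene). DESeq2 1.42.0 and limma 3.58.1 (limma-voom, and log2 FPKM with pseudocounts of 1 and 0.1) were alternatives. Others were RLE factors, library totals, other filters, a replicate block, mitochondrial genes left out, copies summed, only the libraries compared and each library left out. Limma-voom on 5 libraries and a fit to 4 were added after the data were seen. The 10 genes and all lists were chosen with earlier results of these data known. Besides the 10, Nfe2l2, Keap1 and Bach1 were named always, any called gene of a list, and up to 3 genes per list of at least 5 CPM with the largest non-overlapping difference of CaP Zn0.8Mn0.1Li from CaP Zn. For each of the 9 tested genes the nearest gene in pattern was also named. Copies were found as stretches of 50 bases shared with other GENCODE transcripts, and Gstp3 was summed with the Gstp1 copies though it shares none. Tested on simulated counts (CaP Zn0.8Mn0.1Li compared with CaP Zn), the fit to 6 libraries recovered 4% of 100 genes changed 2-fold among 12943 genes. It recovered 74% of 100 changed 4-fold. The fit to 5 libraries recovered 100% of both among 13058. The common dispersion was 0.0942 with 6 libraries and 0.00656 with 5. These shares need not hold for a gene that varies more than most, such as Gstp1. Floors cover counting error only, since no molecular identifiers are given.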

Additional observations from a re-analysis of the deposited data

How the results depend on the processing

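No member was called in any of the 3 comparisons in edgeR with RLE factors, library totals, no filter, a mean count of at least 100, mitochondrial genes left out, copies summed or only the libraries compared, nor by DESeq2, limma-voom or limma on log2 FPKM. Over all genes, DESeq2 and the fit with no filter each called 1 gene on CaP Zn0.8Mn relative to CaP Zn and 1 between the alloys with manganese, and in the F test 5 and 1. Leaving out libraries, genes called ran from 0 to 7808 on CaP Zn0.8Mn relative to CaP Zn, 0 to 47 with lithium against CaP Zn, 0 to 8096 between the alloys with manganese and 0 to 7603 in the F test. Members called ran from 0 to 7, 0 to 1 and 0 to 8. The upper ends, but for those with lithium against CaP Zn, are the fits in which CaP Zn0.8Mn replicate 1 alone stands for its alloy. Those with lithium against CaP Zn come from the fit to 4 libraries, where single libraries stand for CaP Zn and CaP Zn0.8Mn.

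The log2 fold change of Srxn1 on CaP Zn0.8Mn relative to CaP Zn, 0.01, became -0.030 with library totals, -0.040 with no filter, -0.0032 in DESeq2 and -0.0021 in limma-voom. It was -0.0022 in limma on log2(FPKM + 1), with and without a filter, and -0.0024 on log2(FPKM + 0.1). Sqstm1 with lithium against CaP Zn was -0.030 with library totals. Leaving out libraries turned other signs, most often without CaP Zn0.8Mn replicate 1. For CaP Zn0.8Mn against CaP Zn the ranges were -0.13 to 0.32 for Gclc, -0.48 to 0.15 for Gsr, -2.16 to 0.83 for Gstp1, -0.77 to 0.33 for Prdx1, -0.26 to 0.25 for Srxn1 and -1.22 to 0.043 for Sqstm1. With lithium against CaP Zn they were -0.23 to 0.16 for Slc7a11, -0.23 to 0.082 for Gclc, -0.23 to 0.10 for Gsr, -0.31 to 0.15 for Srxn1 and -0.10 to 0.11 for Sqstm1. Between the alloys with manganese they were -0.41 to 0.047 for Gclc, -0.065 to 0.37 for Gclm, -0.065 to 0.42 for Gsr, -0.23 to 2.66 for Gstp1, -0.0079 to 1.10 for Txnrd1, -0.087 to 1.01 for Prdx1, -0.33 to 0.16 for Srxn1 and -0.034 to 1.22 for Sqstm1.

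With the replicate number as a block, 0 genes were called in every comparison. Same-numbered libraries correlated in their deviations from the group means at 0.254, -0.153 and -0.0939. With only 2 libraries per alloy, these values cannot settle whether same-numbered libraries were handled together. Limma-voom on 5 libraries called 1, 0 and 2 genes, and DESeq2 on 5 libraries 5, 12 and 3. The 2 libraries per alloy and the spread of 1 of them limit what the 6-library tests could detect, and Nqo1 is limited by depth.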

Other observations

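Gclm shares sequence with Ppia, which encodes cyclophilin A, and with its processed pseudogene Gm10123, and both of these carry far more counts than Gclm. In CaP Zn replicates 1 and 2, CaP Zn0.8Mn replicates 1 and 2 and CaP Zn0.8Mn0.1Li replicates 1 and 2, Ppia had 17916, 16379, 16686, 28858, 22570 and 15465 counts. Gm10123 had 16832, 14103, 1630, 5990, 12397 and 14936 counts in the same order. The pseudogene thus had 1630 and 5990 counts in the CaP Zn0.8Mn libraries and 12397 or more in the others. In CaP Zn0.8Mn replicate 2, where the pseudogene was at 5990, Ppia had its highest count, 28858. In replicate 1 of that alloy Ppia was at 16686. Reads from shared sequence can be assigned to either copy, so a low count of the pseudogene alone does not show less of its RNA. How reads were divided between these copies was not tested. Both genes were singled out after their values were seen, and the difference was not tested.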
